A study of Homo sapiens with 3 samples.

Results

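The bile acid and vitamin D receptor genes are 10 genes that encode 3 nuclear receptors and transcripts known to respond to them, and they were picked by name out of 21610 genes with a probe on the array. The receptors are NR1H4 (also known as FXR), VDR and NR1I2 (also known as PXR). The other 7 genes are NR0B2, FGF19, SLC51A, SLC51B, FABP6, CYP24A1 and CYP3A4. All 10 had a probe, 11 probes in all, since CYP24A1 had a pair and each of the other 9 genes had 1. The genes were named when results of these arrays were already known, so their levels and differences are given as a description and no test supports them.

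HT29 is an established cell line from a human adenocarcinoma of the colon. It was grown on tissue culture polystyrene (TCP), on chitosan membranes (CS) or on chitosan membranes grafted with hyaluronan (CSHA), and the RNA of each substrate was labelled with Cy3 and hybridized to a single-colour array. No further agent or gene change is given in the labels, and all cells came from the same line and were kept in the same serum-containing medium, with the culture time of these samples not given. The comparison asked how the substrate changes the transcriptome of these cells. There was 1 array for each substrate, 3 arrays on 1 slide, so replicates are missing for every difference between substrates, and p-values were not computed. The scanner's processed signal, which is corrected for background, was put on a log2 scale, and the 75th percentile of the array was then subtracted, which stood at 354 for TCP, 423 for CS and 337 for CSHA. This value is called the normalized level here. Levels of different genes come from different probes and were not compared with each other.

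FXR is the nuclear receptor for bile acids. In the ileum and liver it is known to raise transcription of SHP, the repressor encoded by NR0B2, of the hormone FGF19, which lowers bile acid synthesis in the liver, and of the genes for proteins that carry bile acids through the enterocyte. VDR answers to the active form of vitamin D and to lithocholic acid, and CYP24A1, the hydroxylase that breaks down vitamin D, is its best known target gene. PXR senses drugs and bile acids and raises CYP3A4, the major drug-metabolizing cytochrome P450. All 3 receptors bind DNA as partners of the retinoid X receptors.

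Organic solute transporter is built from an alpha subunit, encoded by SLC51A, and a beta subunit, encoded by SLC51B, and it exports bile acids across the basolateral membrane. The 250 bases before the start sites of these genes are shown because the subunits of this one transporter differed between the membranes. They lie at chr3:196216284-196216533 and chr15:65045137-65045386 of GRCh38.p14, both on the plus strand, and come from RefSeq promoters, which covered 6 of the 10 genes with 7 start sites. They are written 5′ to 3′, and the capitals in SLC51B mark a match, with up to 2 mismatches, to the FXR element.
SLC51A: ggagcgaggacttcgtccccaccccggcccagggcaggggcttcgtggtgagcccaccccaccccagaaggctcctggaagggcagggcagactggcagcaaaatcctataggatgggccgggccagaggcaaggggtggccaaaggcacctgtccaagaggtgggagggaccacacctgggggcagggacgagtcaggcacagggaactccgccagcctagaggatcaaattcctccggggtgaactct
SLC51B: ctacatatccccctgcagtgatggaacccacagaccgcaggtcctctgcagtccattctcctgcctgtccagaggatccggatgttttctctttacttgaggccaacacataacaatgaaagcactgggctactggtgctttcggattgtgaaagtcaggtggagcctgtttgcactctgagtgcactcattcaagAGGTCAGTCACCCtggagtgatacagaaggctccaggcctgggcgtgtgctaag
The element searched was the inverted repeat IR1, which is the receptor half-site AGGTCA, then any 1 base, then the reverse complement of the half-site, on both strands. In SLC51B the match read AGGTCAGTCACCC, began at position -54 from the start, and differed from the element at 2 bases. Its first bases are themselves a half-site, so the matches overlap. No exact IR1 was found in any of 35116 promoters of this length, and 0.945% of them held it with up to 2 mismatches. The half-site alone stood in 12.1% of all promoters. The half-site was also found at position -157 of CYP3A4 and, on the opposite strand, at position -230 of NR1H4. The direct repeat DR3 of VDR, which is AGGTCA, any 3 bases and AGGTCA again, stood with up to 2 mismatches in 2.06% of all promoters and in none of the 7 windows. The windows of SLC51A, FABP6 and both NR1I2 start sites held none of these elements. Such a match describes the letters and does not show that a receptor binds there.

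Of the 10 genes, 8 were well above background on at least 1 array and 6 on all 3. NR1I2 and CYP3A4 were above it on none. Among the 8 genes compared, 6 were higher and 2 lower on CS than on TCP, where 56.8% of all genes were higher. On CSHA 5 were higher and 3 lower, where 61.7% of all genes were higher. At least 2-fold higher on CS was 1 gene, NR0B2, against 1.36% of the 14462 genes compared, and 0 were 2-fold lower, against 1.92%. On CSHA NR0B2 and SLC51A were at least 2-fold higher, against 3.02% of 14623 genes, and FGF19 was at least 2-fold lower, against 3.98%. SLC51A and FGF19 entered only through the arrays where they were bright enough, so these counts are no support for a shared direction. On CSHA against CS 4 were higher and 4 lower, where 58.5% of all genes were higher. The 8 genes had a median log2 difference from TCP of 0.33 for CS and 0.26 for CSHA, where that of all genes was 0.04 and 0.13. The comparisons of both membranes share the TCP array.

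**Figure D1:**
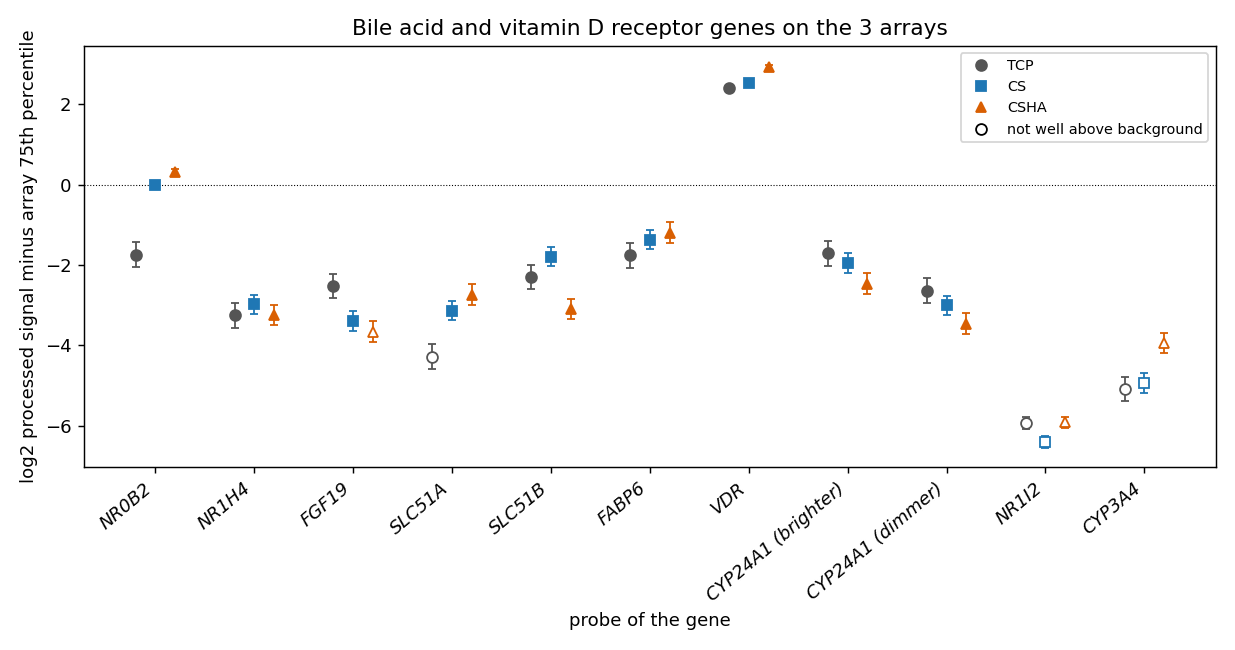
Normalized level (log2 processed signal minus the 75th percentile of the array) of each probe of the 10 genes on TCP, CS and CSHA, 1 array each. Bars give the median SD among the spots of probes printed 10 times or more on that array, taken from the same of 5 bins of brightness. Open symbols are not well above background. NR0B2 stood at -1.74 for TCP, -0.01 for CS and 0.31 for CSHA, and SLC51B was lowest on CSHA at -3.09.

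NR0B2, on chromosome 1, had the largest difference among these genes. Its processed signal was 106 on TCP against 420 on CS and 419 on CSHA, and its normalized level was -1.74, -0.01 and 0.31. Both membranes stood well above TCP and close to each other. The difference from TCP was 1.74 on the log2 scale on CS, or 3.33-fold, and 2.06 on CSHA, or 4.16-fold. The SD of a difference from the spread among spots was 0.31 for each. These arrays measured whole cultures, so fewer cells of a kind and less RNA per cell cannot be told apart. In order of size among genes higher than on TCP, NR0B2 was at place 56 of 14462 genes compared on CS and at place 64 of 14623 on CSHA. CSHA was above CS by 0.32, with a spot SD of 0.08. The processed signals of the membranes were near equal and the 75th percentiles were not, so the size of this last difference depends on the scaling. Over the alternatives it ran from 0.29 to 0.70, the highest with scaling to spike-in probes.

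NR1H4, the receptor on whose activity NR0B2 is known to depend, lies on chromosome 12 and was dim but well above background on all arrays. In the order TCP, CS, CSHA its processed signal was 37.2, 53.6 and 35.7, and its normalized level was -3.25, -2.98 and -3.24. TCP and CSHA were level with each other. The log2 difference from TCP was 0.27 on CS and 0.01 on CSHA, less than the spot SD of 0.39 and 0.40. The difference on CS turned to -0.05, -0.06 and -0.09 under 3 alternatives to the background correction of the scanner software. These were normexp, a model-based correction that keeps every signal positive, no background subtraction, and the deposited log2 values. No direction can be given for NR1H4.

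FGF19, on chromosome 11, was lower on both membranes, where NR0B2 was higher. Its processed signal was 61.7 on TCP against 40.2 on CS and 26.7 on CSHA, where it was not well above background. Its normalized level was -2.52 for TCP, -3.39 for CS and -3.66 for CSHA. The level was highest on TCP. It was 1.83-fold lower on CS, with a log2 difference of -0.87 and a spot SD of 0.39, and at least 2.20-fold lower on CSHA, with a bound of -1.14. With normexp background correction the difference on CS was -0.43. The bound on CSHA was -0.39 with normexp and also without background subtraction, and -0.71 with scaling to the probes of spiked-in control RNA, so that these alternatives did not place FGF19 past 2-fold there.

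**Figure D2:**
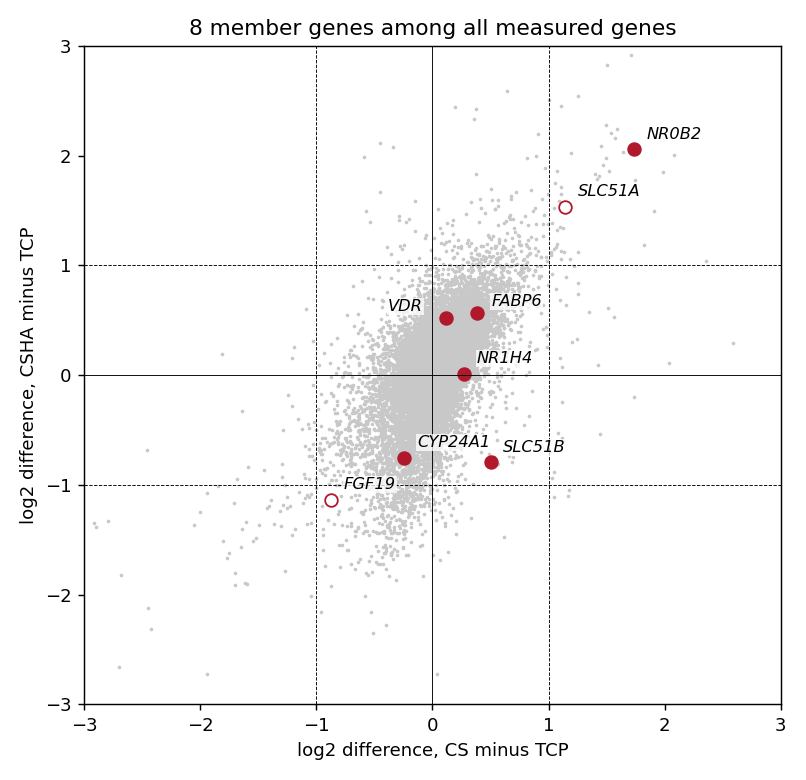
Log2 difference from TCP on CS (horizontal axis) and on CSHA (vertical axis) for the 13484 genes that all 3 arrays measured well above background (grey, with 5 genes outside the axes) and for the 8 genes compared here (red). Open circles are genes not well above background on 1 array, drawn at their measured difference, and dashed lines mark 2-fold. NR0B2 lay at 1.74 and 2.06, FGF19 at -0.87 and -1.14, and SLC51B was higher on CS and lower on CSHA, at 0.50 and -0.80.

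The subunits of organic solute transporter differed between the membranes. SLC51A, on chromosome 3, had a processed signal of 18.3 on TCP, where it was not well above background, against 48.0 on CS and 50.4 on CSHA. Its normalized level was -4.28 for TCP, -3.14 for CS and -2.74 for CSHA. Both membranes were above TCP. Against the lowest signal well above background on TCP, it was at least 1.67-fold higher on CS and at least 2.20-fold higher on CSHA, with log2 bounds of 0.74 and 1.14. CSHA was above CS by 0.40, with a spot SD of 0.35. The bounds on CS and CSHA were 0.23 and 0.48 with normexp, and 0.28 and 0.52 without background subtraction, and these alternatives did not place SLC51A past 2-fold on CSHA.

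SLC51B, on chromosome 15, did not follow it on CSHA. It was well above background on all arrays, with a processed signal of 72.0 for TCP, 122 for CS and 39.5 for CSHA. Its normalized level was -2.30, -1.80 and -3.09 in the same order. CS was highest and CSHA lowest. The log2 difference from TCP was 0.50 on CS, or 1.41-fold higher, and -0.80 on CSHA, or 1.74-fold lower, with spot SDs of 0.39 and 0.40. SLC51B was 2.46-fold lower on CSHA than on CS, with a log2 difference of -1.30 and a spot SD of 0.35. It was the single gene of the 8 that was 2-fold lower in that comparison, against 2.15% of 14596 genes, and none was 2-fold higher, against 2.27%. Over the alternatives its difference between the membranes ran from -1.46 to -0.55, and it was under 2-fold with normexp (-0.55), without background subtraction (-0.61), with the deposited values (-0.58) and with scaling to spike-in probes (-0.92). The opposite signs on CS and CSHA were kept in all 10 alternatives, with values of 0.15 to 0.55 on CS and -0.93 to -0.35 on CSHA. The filters on dim probes and the averaging of probes could not change them, since SLC51B had a single probe, measured on all arrays.

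FABP6, on chromosome 5, encodes the ileal bile acid binding protein, which carries bile acids through the cytosol. TCP, CS and CSHA gave a processed signal of 105, 163 and 147 and a normalized level of -1.76, -1.38 and -1.20. TCP was the lowest. The log2 difference from TCP was 0.38 on CS, no larger than its spot SD of 0.39, and 0.56 on CSHA, or 1.48-fold, with a spot SD of 0.40. CSHA was above CS by 0.18, less than the spot SD of 0.35. Over the alternatives the difference on CSHA ran from 0.41 to 0.99, the highest with scaling to spike-in probes.

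VDR, on chromosome 12, was the gene measured most closely, since its probe was printed at 10 spots on each array. The processed signal of these spots had a lowest, median and highest value of 1707, 1879 and 1961 on TCP, 2321, 2403 and 2606 on CS, and 2466, 2554 and 2625 on CSHA. The mean normalized level was 2.40 ± 0.06 for TCP, 2.52 ± 0.04 for CS and 2.92 ± 0.03 for CSHA (SD among 10 spots). By normalized level, all 10 spots of CSHA lay above every spot of CS and TCP, and the spots of CS and TCP overlapped, with 9 of the 10 spots of CS above every spot of TCP. By processed signal, the spots of CSHA and CS overlapped and every spot of CS lay above those of TCP. Which spots overlapped therefore depends on the shift, while every CSHA spot was above every TCP spot either way. From lowest to highest the order was TCP, CS and CSHA by median processed signal and by mean normalized level. VDR was 1.43-fold higher on CSHA than on TCP, a log2 difference of 0.52, and 1.08-fold higher on CS, a difference of 0.11. The spots of an array share 1 RNA sample and are no replicates of the culture. A difference of at least 0.52 in size was found in 27.4% of all genes compared on CSHA, and one of at least 0.11 in 66.3% on CS.

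**Figure D3:**
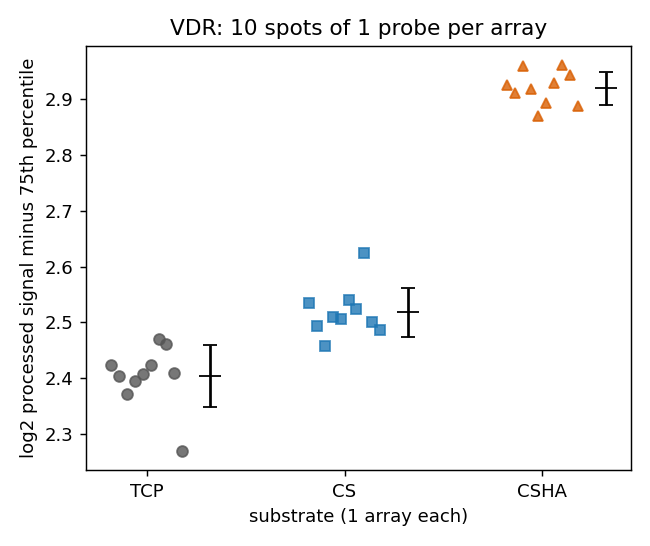
Normalized level of VDR at each of the 10 spots of its probe on TCP, CS and CSHA, with the mean and SD among spots drawn beside them. The CSHA spots, from 2.87 to 2.96, lie above those of CS, from 2.46 to 2.62, and of TCP, from 2.27 to 2.47.

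CYP24A1, on chromosome 20, was lower on CSHA, where VDR was higher. Its brighter probe had a processed signal of 108 on TCP, 109 on CS and 61.0 for CSHA, with a normalized level of -1.71, -1.95 and -2.47. Its dimmer probe had a processed signal of 56.7, 52.6 and 30.6, and a normalized level of -2.64, -3.01 and -3.46. Both probes were well above background on all arrays and both were lowest on CSHA. The log2 difference of CSHA from TCP was -0.76 for the brighter probe, or 1.69-fold lower, and -0.82 for the dimmer, or 1.76-fold lower, with a spot SD of 0.40. On CS the differences of -0.24 and -0.36 were within the spot SD of 0.39. With scaling to spike-in probes the difference on CSHA was -0.33 for CYP24A1 and 0.95 for VDR, and with normexp it was -0.47 and 0.47.

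NR1I2 and CYP3A4 were not measured on any array. The probe of NR1I2, on chromosome 3, was well above background at none of the spots used, and its mean processed signal was 5.79 for TCP, 5.04 for CS and 5.68 for CSHA, over the 7, 8 and 9 of 10 spots that were not outliers. A single outlier spot left out on CSHA had a signal of 200.9. That of CYP3A4, on chromosome 7, had 10.4 for TCP, 13.8 for CS and 21.96 for CSHA. The lowest signal that counted as well above background was 24.1, 21.5 and 22.6 on these arrays. For CYP3A4 the signal on CSHA lay just under that lowest signal. It is not a cutoff, since FGF19 at 26.7 on CSHA was not well above background. No fold is given for NR1I2 or CYP3A4.

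**Figure D4:**
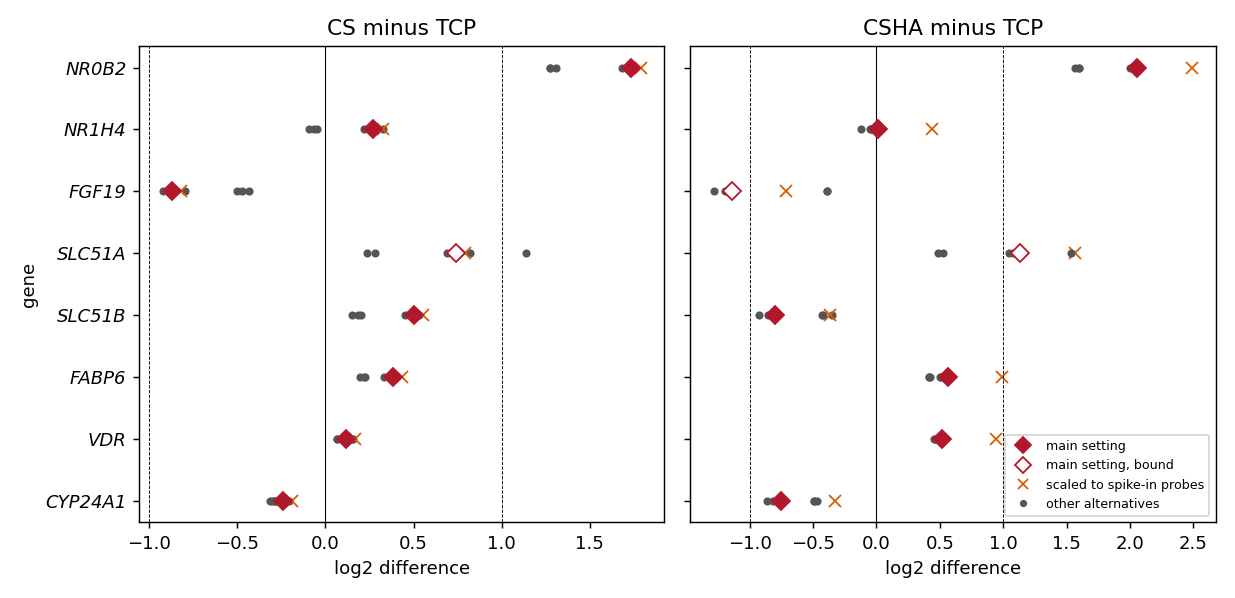
Log2 difference from TCP on CS (left) and CSHA (right) for the 8 genes compared, under the main setting (diamonds, open where the value is a bound) and the alternatives of background correction, scaling, probe filter and source of values (dots and crosses). Most alternatives for SLC51A, and for FGF19 on CSHA, are bounds as well. Dashed lines mark 2-fold. NR0B2 stayed past 2-fold under every alternative, with 1.28 to 1.79 for CS and 1.56 to 2.49 for CSHA, while NR1H4 lay on both sides of 0. The probe filters and the averaging of probes could not move either gene, each with a single probe measured on all arrays.

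Further genes of bile acid handling were read from a list of 27, all with a probe. On CS 15 of them were compared, 11 higher and 4 lower than on TCP. On CSHA 13 were compared, 10 higher and 3 lower. The share of higher genes over the whole array was 56.8% for CS and 61.7% for CSHA. The median log2 difference was 0.21 on CS and 0.19 on CSHA. At least 2-fold higher on CS, as were 1.36% of all genes, were BAAT, which joins bile acids to glycine or taurine, and GPBAR1, the cell surface bile acid receptor. BAAT was well above background on CS alone, with a log2 bound of 2.66, and GPBAR1 had log2 differences of 1.12 on CS and 0.07 on CSHA. At least 2-fold lower on CS, as were 1.92% of all genes, were the uptake carriers SLC10A1 at -1.12 and SLCO1B1 at -1.09. SLC10A1 was not well above background on CSHA, with a bound of -1.62, while SLCO1B1 was at 0.60. GPBAR1, SLC10A1 and SLCO1B1 were dim, with normalized levels of -2.77, -2.27 and -2.31 on TCP, where the median spot SD was 0.31. The ileal uptake carrier SLC10A2 was at -0.06 and 0.06, and FGFR4, the receptor of FGF19, at 0.17 and 0.19. KLB, the coreceptor of FGF19, was well above background on no array. The efflux pumps ABCC2 and ABCC3 had differences of 0.62 and 0.05 on CS, and of 0.67 and 0.26 on CSHA. Genes of bile acid synthesis were mixed. CYP7A1, CYP7B1, CYP8B1, AKR1D1 and ACOX2 were above background on no array, and CYP27A1 on CS alone. HSD3B7, SLC27A5 and, by its brighter probe, AMACR were well above background on every array.

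The list on vitamin D held 25 genes, of which 7 were higher and 8 lower among 15 compared on CS, and 6 were higher and 8 lower among 14 on CSHA. Of all genes 56.8% and 61.7% were higher. None of the list reached 2-fold on CS, and on CSHA, where 3.02% of all genes were 2-fold higher, CD14, a monocyte receptor that is induced by vitamin D, was higher by 1.04, and by 0.50 on CS. By the brightest probe of each gene the lowest was DKK1, a secreted Wnt antagonist, at -0.97 on CS and -0.86 on CSHA. The dimmer probe of KLK6, well above background on all arrays, was at -0.86 on CS and -1.92 on CSHA. Its brighter probe was at -0.56 and -0.64. CYP27B1, which makes active vitamin D, was at 0.00 on CS and -0.50 on CSHA. TRPV6, the calcium channel of the intestinal brush border, was above background on no array.

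Of 24 known PXR target genes 19 had a probe. On CS 12 were higher and 2 lower among 14 compared, with a median of 0.36, and on CSHA 11 were higher and 4 lower among 15, also with a median of 0.36. The share of all genes that were higher was 56.8% on CS and 61.7% on CSHA. On TCP CYP3A43 was not well above background, and it had log2 bounds of 2.32 on CS and 3.03 on CSHA. Its sequence is close to that of other CYP3A genes, and whether its signal is shared with them was not tested, so it is uncertain. By their brighter probes CYP3A5 and CYP3A7 were well above background on all arrays. Their differences were 0.14 and 0.12 on CS, and 0.37 and 0.36 on CSHA. The dimmer probe of CYP3A5, well above background on all arrays, took the other sign, at -0.24 on CS and -0.11 on CSHA. That of CYP3A7 was well above background on CSHA alone, with a bound of 0.43. The lowest were THRSP, with a bound of -0.996 for CS and -0.57 for CSHA, and ALAS1, the first enzyme of heme synthesis, at -0.19 and -0.68. ABCB1, which encodes P-glycoprotein, was above background on no array.

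All 30 partners and coregulators of these receptors had a probe. Of 29 compared on CS 12 were higher and 17 lower, and of 30 on CSHA 22 were higher and 8 lower, with medians of -0.03 and 0.25. Against these stand 56.8% and 61.7% of all genes that were higher. RXRA, the common partner of FXR, VDR and PXR, was at -0.12 on CS and 0.74 on CSHA. RXRG was 2-fold lower on CS at -1.45, and had a bound of -1.67 on CSHA, where it was not well above background. HNF4A, a receptor of enterocyte and hepatocyte genes, was at -0.06 and 1.01, and HNF4G at 0.995 and 0.82. HNF4A and RXRG were dim, with normalized levels of -3.49 and -2.23 on TCP, where the median spot SD was 0.31. NR5A2, also known as LRH-1, whose activity SHP represses, was at 0.15 and 0.49. NR1H2, an oxysterol receptor, was 2-fold lower on CSHA at -1.01 and at -0.02 on CS. The second probes of HNF4G and RXRG did not measure these genes on TCP, and that of NR5A2 was at -0.09 on CS and 0.16 on CSHA. The probes of MED1, a coregulator, took opposite signs. Its brighter probe was at -0.30 on CS and -0.65 on CSHA. Its dimmer probe, well above background on all arrays, was at 0.40 on CS and 1.05 on CSHA.

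**Figure D5:**
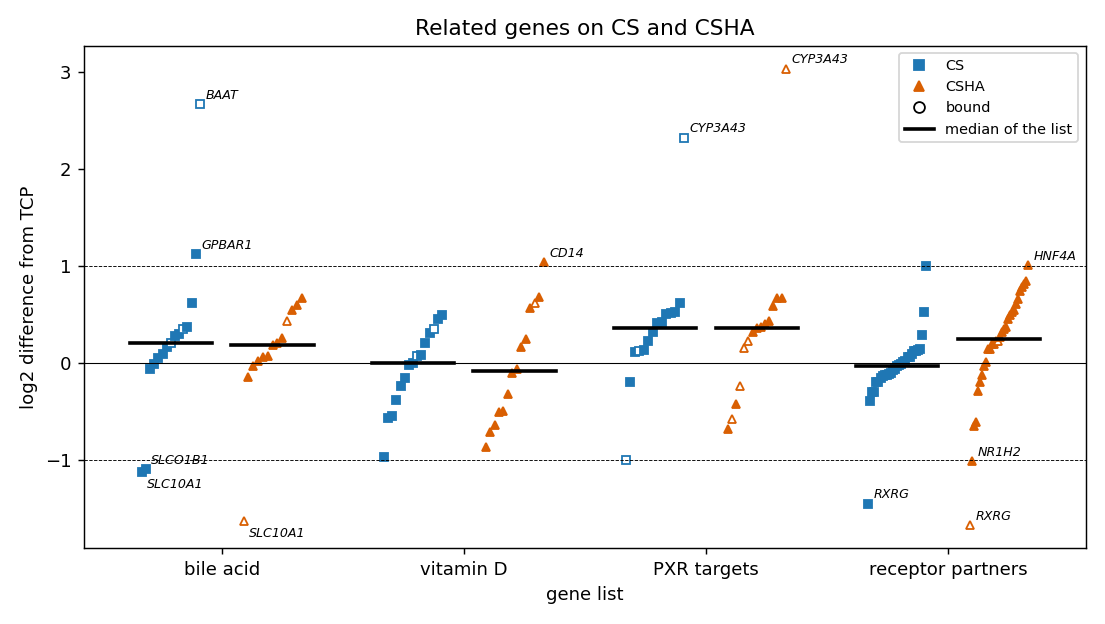
Log2 difference from TCP on CS (squares) and CSHA (triangles) of each compared gene in 4 lists of related genes, with bounds as open symbols, the median of each list as a bar and 2-fold as dashed lines. Medians were 0.21 and 0.19 for bile acid handling, 0.00 and -0.08 for vitamin D, 0.36 and 0.36 for PXR targets, and -0.03 and 0.25 for receptor partners, against 0.04 and 0.13 for all genes.

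The genes whose pair of differences from TCP lay nearest to that of NR0B2, by Euclidean distance over 3 arrays among 13484 genes, were TPPP, CEACAM5, BNIP5, PHGR1 and MAOA, at distances of 0.10 to 0.25. TPPP had differences of 1.64 on CS and 2.04 on CSHA, and CEACAM5, a cell surface glycoprotein of the colon epithelium, by 1.57 and 2.16. Nearest to FGF19 were HAUS3, TREML2, LNCAROD, LINC01819 and SCEL, at distances of 0.09 to 0.14, with FGF19 itself not well above background on CSHA. With a single array for each substrate such distances describe these arrays alone.

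Markers of other cell types were read beside these genes. Their summed signals are of the processed signal, before the percentile shift that gives the normalized level. That shift differed between the arrays, so the order of the arrays by summed signal can change with it, and no direction is read from these sums. Of 10 colon epithelial markers, 9 were well above background on TCP and 10 on each membrane, with a summed signal of 351762, 403204 and 350776 on TCP, CS and CSHA. GPA33, not measured on TCP, had log2 bounds of 1.62 on CS and 2.01 on CSHA. The others ran from -0.27 for KRT18 to 0.92 for CDX2 on CS, and from -0.20 for LGALS4 to 0.90 for KRT20 on CSHA. Of 8 markers of ileal enterocytes, none was above background on TCP or CSHA and 1, APOA4, on CS, with a summed signal of 70.5, 74.0 and 50.7 on TCP, CS and CSHA. Of 9 hepatocyte markers, 1, APOA1, was above background on TCP, and on each membrane it was joined by TTR, which had log2 bounds of 2.63 on CS and 3.20 on CSHA. The summed signal of these 9 was 97.5, 285 and 308, while ALB, the defining marker, was above background on no array. Of 7 stromal markers 2 were above background on TCP and none on the membranes, with a summed signal of 91.8, 47.3 and 34.8. Of 4 immune markers 4, 3 and 4 were above background, with a summed signal of 2455, 3468 and 3906. CD3E was the one not measured on CS, with a bound of -2.78 there and a difference of -1.75 on CSHA. The part of these markers in the differences above was not tested.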

How the data were processed

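RNA of HT29 cells from TCP, CS and CSHA was measured on 3 single-colour Agilent arrays, 1 per substrate. For each spot the authors deposited its intensity and flags, and they added a table of log2 values. Differences between samples in that table equalled those of the log2 median spot signal apart from 1 constant per pair of arrays, so they are not corrected for background. Feature Extraction 10.7.3.1 stands in the file headers. The methods give an earlier version, and the sample records name other RNA and labelling kits than the methods do. There were 0 columns without a sample.

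Here the processed signal of each spot, with a floor of 1 that changed no spot, was put on a log2 scale. These log2 values were averaged over the spots of a probe that were not outliers. The averages were shifted by the 75th percentile of all probes but the controls. Of 50599 such probes, 30004 matched a gene in RefSeq tables for GRCh38.p14 and 20595 did not. The coordinates of the files use an older build and were not used. The probe brightest over the arrays stood for each gene, and several probes were found for 6216 of 21610 genes. Comparison of 2 arrays needed a gene to be well above background on 1 or both. Where 1 array did not measure it, the difference is a bound, taken against its own signal there or the lowest signal that counted as well above background, whichever was higher. The share of probes well above background was 48.6% for TCP, 51.1% for CS and 49.9% for CSHA, and 0 were saturated. The spread among spots is the median SD of probes printed at 10 spots or more, in 5 bins of brightness, combined over both arrays. It leaves out differences between cultures, and the number of arrays limits the precision. The second bin from the dimmest ran from -5.60 to -1.11 on TCP, so genes of unlike brightness were given the same spread.

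With 1 array per substrate there was no test, and genes were counted at 2-fold. The 10 genes, the lists of related genes and markers and the rule for naming genes were chosen with earlier results of these data known. Named were all 10 genes and the 5 genes nearest to NR0B2 and to FGF19. Each list of related genes, markers apart, gave its highest and lowest gene and a fixed choice. It also gave those at least 2-fold different from TCP by any probe. CYP3A5 and CYP3A7 were added beside CYP3A43, and genes of bile acid synthesis were added as well. The calculation was tested on simulated arrays. In all, 10 alternatives were computed besides 1.5-fold and 3-fold, covering background correction (normexp with an offset of 50, or none), quantile normalization, other shifts, scaling to 7 spike-in probes, other filters on dim probes, averaging of all probes of a gene and the deposited log2 values. Python 3.11.15 was used with pandas 2.3.3 and numpy 2.4.6, and R 4.3.3 with limma 3.58.1 for normexp.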

Additional observations from a re-analysis of the deposited data

Results flagged for a closer look

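SLC51B, the beta subunit of organic solute transporter, moved in opposite directions on the membranes, with a log2 difference from TCP of 0.50 on CS and -0.80 on CSHA. CSHA lay below CS by a log2 difference of -1.30. With 1 array for each substrate the difference between the membranes was not tested.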

How the results depend on the processing

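No paired analysis was possible because there was 1 array for each substrate and the labels give no replicate numbers. For the 8 genes compared, 12 of 227 recomputed differences took the other sign, and all 12 belonged to NR1H4, at 3 alternatives on CS, 5 on CSHA and 4 between the membranes. Its lowest and highest values were -0.09 and 0.33 on CS, -0.12 and 0.44 on CSHA, and -0.44 and 0.11 between them. The probe filters and the averaging of probes cannot change a gene with a single probe well above background on all arrays. The 227 differences therefore include repeats of main values. In the main setting 1 of the 10 genes was 2-fold higher and 0 lower on CS, 2 were higher and 1 lower on CSHA, and 1 was lower between the membranes (CSHA against CS). A bound was counted by its own size, so a bound under 2-fold does not show a smaller difference. At 1.5-fold 2 were higher and 1 lower on CS, and 3 were lower on CSHA. At 3-fold 1 was higher and 0 lower on CSHA, and 0 were lower between the membranes. The shares of all genes at 1.5-fold and 3-fold were not computed, so these counts have nothing to be set against. With normexp, without background subtraction and with the deposited values, 1 was higher and 0 lower on CSHA, and 0 were lower between the membranes. Without a filter on dim probes 2 were higher on CS, and with genes above background on all arrays 1 was higher and 0 lower on CSHA. With scaling to spike-in probes 0 were lower on CSHA than on either other substrate, and the median of the members was 0.69 on CSHA and 0.55 between the membranes. That scaling raised the median of all genes by 0.43 on CSHA and by 0.38 between the membranes, and no filter on dim probes shifted it by -0.12 on CSHA. Of the related genes 3 were 2-fold higher and 3 lower on each membrane. With normexp and without background subtraction this was 1 higher and 0 lower on each, and with the deposited values 0 in both directions on each. With genes above background on all arrays 1 was higher and 1 lower on CS, and 1 lower on CSHA. Without a filter on dim probes 6 were lower on CS, and 6 were higher and 5 lower on CSHA. With the 75th percentile over detected probes 5 were lower on CS and 1 higher on CSHA, and with spike-in scaling 15 were higher on CSHA. The median of the bile acid list turned to -0.0045 on CS and -0.02 on CSHA. That of the vitamin D list ran from -0.38 to 0.05 and from -0.15 to 0.35, and that of the receptor partners on CS from -0.08 to 0.03. Of all genes, 197 were 2-fold higher and 278 lower on CS, with a range of 34 to 634 and 40 to 1152 over the alternatives. On CSHA 442 were higher and 582 lower, with 123 to 1768 and 181 to 1191, and for CSHA minus CS 332 were higher and 314 lower, with 47 to 1111 and 116 to 676. The cause of these shifts was not tested. Apart from VDR and from NR0B2 on CSHA, the signals of these genes lay below the 75th percentile of their array, and the spot SD there reached 0.31.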
